A study of Mus musculus with 4 samples.

Results

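The transcription factors studied here act in megakaryocytes. Runx1, Fli1, Etv6, Ets1, Meis1, Mef2c, Mecom, Lyl1 and Hhex were taken by symbol from the deposited expression table. All 9 were found among its 56793 gene rows, once each. RNA from bone marrow cells sorted by flow cytometry as megakaryocytes, the cells that shed platelets, was compared between young mice (2 libraries) and old mice (2 libraries). All mice carried the genotype label Blc6, and no other allele or agent is named. The ages, the sorting gate and the number of animals behind a library are not stated in the material used here. The p-values below therefore measure the spread between these libraries, which may be technical.

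RUNX proteins bind DNA together with core binding factor beta, and ETS proteins bind sites built around a GGAA core. In megakaryocytes both families occupy many of the same regulatory regions, and inherited loss of RUNX1, FLI1 or ETV6 function in humans lowers platelet number or function. MEIS1 works with other homeobox proteins and was shown to act on the promoter of rat Pf4, the gene for platelet factor 4. MECOM and HHEX act in blood stem and progenitor cells, LYL1 and TAL1 form related complexes with E proteins and LMO2, and MEF2C promotes megakaryocyte and lymphoid gene programmes.

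Mecom was the factor that rose in old samples and Lyl1 the one that fell, and the other 7 did not pass the threshold. The fall of Lyl1 did not pass under the other scalings given below. Levels are in TPM, a transcript abundance scaled to a fixed total, which is meant to correct for transcript length so that different genes can be compared. Mecom was at 0.567 ± 0.0426 TPM in young and 2.46 ± 0.191 TPM in old samples (SD, n = 2 each), and Lyl1 at 157 ± 0.0891 and 121 ± 5.29 TPM (SD, n = 2 each). Differences were tested with limma on log2(TPM + 1), two-sided, with Benjamini-Hochberg adjustment over 16073 genes and a threshold of 0.05. Across all tested genes 19.9% were called, 5.20% higher and 14.7% lower in old, against 1 higher and 1 lower of the 9 factors. Mecom reached the minimum level for testing only through its old libraries, so nothing is read from the count of factors called higher. At an unadjusted limma p under 0.05, 2 factors, Mecom included, were higher and 4 lower, and 39.3% of all tested genes passed that cut, 11.3% higher and 28.0% lower. For all 9 factors the young and old values did not overlap, 3 being higher and 6 lower in old, but that held for 67.9% of tested genes, 21.8% being higher and 46.1% lower.

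The libraries held RNA of many marrow cells beside megakaryocytes. The 12 megakaryocyte markers summed to 1730 and 2277 TPM (young) against 949 and 1416 TPM (old), and none of them was at 0. The 10 neutrophil markers summed to between 115938 and 137803 TPM over the 4 libraries. Plasma cell markers rose, 8 of 8, from sums of 326 and 297 TPM to 1180 and 1072 TPM. Erythroid markers fell, 10 of 10, and 11 of 12 markers of B cells and their precursors fell. Of all tested genes 5.20% were called higher and 14.7% lower. The plasma cell marker Tnfrsf17 passed the minimum level only through its old libraries. Among the B cell markers Rag2 passed it only through its young ones. None of the markers in these lists was at 0 in every library. In bulk samples fewer cells of a type and less RNA per cell cannot be told apart, and the part of these cell types in the results below was not tested. Immunoglobulin genes held 1.03% and 0.896% of TPM in the young and 13.3% and 13.1% in the old libraries, and within a fixed total a larger share of one class leaves less for the rest. Over all tested genes the median log2 change was -0.10 for TPM as deposited and 0.070 with immunoglobulin genes removed, and the calls went from 835 higher and 2369 lower to 1295 higher and 508 lower.

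**Figure D1:**
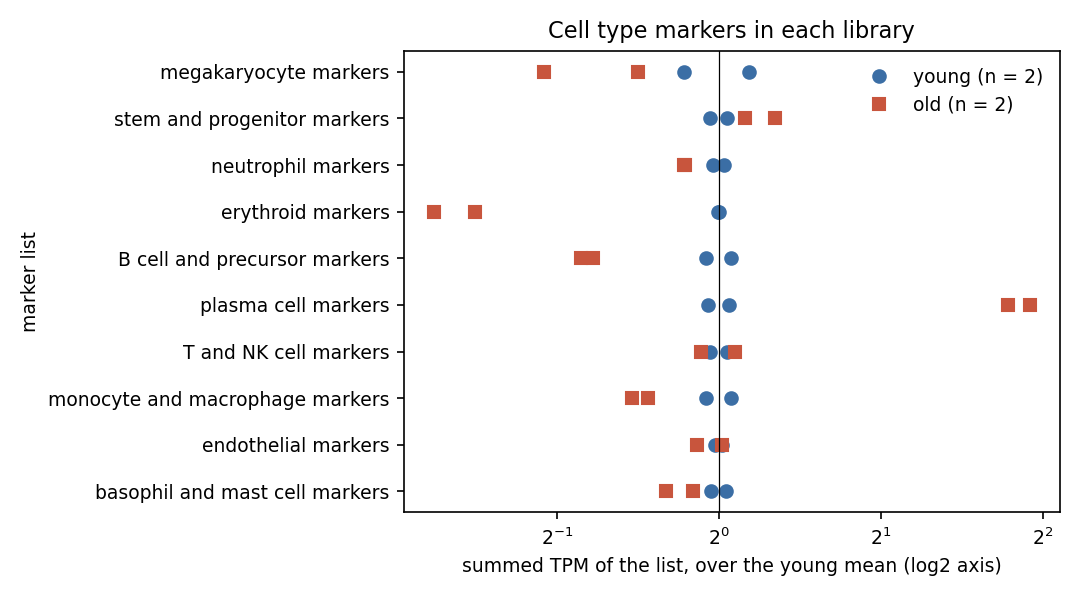
Summed TPM of each marker list in each library, divided by the mean of the 2 young libraries, on a log2 axis, with young libraries as circles and old ones as squares. Plasma cell markers lie to the right in old samples and erythroid, B cell, macrophage and megakaryocyte markers to the left.

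Levels of the 9 factors spanned a wide range. Lyl1 was the most abundant in every library and ranked between 870 and 1202 among all genes. In young samples Ets1, Fli1 and Etv6 followed at 66.9, 62.2 and 59.6 TPM, then Runx1, Hhex and Mef2c at 41.6, 36.0 and 34.9 TPM. Meis1 and Mecom were the lowest in both groups, with Mecom ranking between 13536 and 17920. For both, the authors' mean normalized count was unusually high for the TPM, at 601 and 172 counts per TPM. The median of their listed genes was 40.5. How far this bears on the place of Meis1 and Mecom in the order was not tested. In old samples Etv6 came second at 63.4 TPM and Ets1 moved behind Fli1, while Mef2c came before Hhex. Within each group no neighbours in this order overlapped in their 2 libraries, which with 2 values each is a description and no test.

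**Figure D2:**
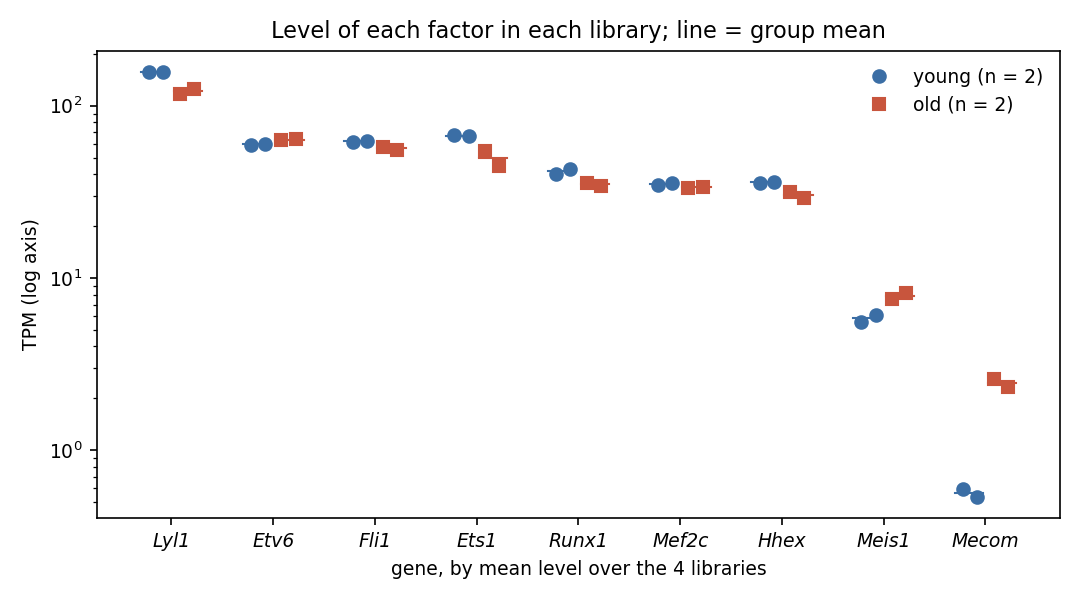
TPM of the 9 factors in each library on a log axis, ordered by mean level, with young libraries as circles, old libraries as squares and a line at each group mean. Mecom and Meis1 lie far below the other 7 and are higher in old samples, and Lyl1 lies above them and is lower in old samples.

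The promoters of the factor that rose, of the one that fell and of Meis1 are shown to place the binding motifs of the families studied. Meis1 was, like Mecom, higher in both old libraries. So was Etv6, whose window held 0 matches to the motif letters given below and is not shown. RefSeq sequences, build GRCm38.p6, were matched by symbol for 7 of the 9 factors, with 11 start sites, and none was matched for Fli1 or Ets1. That build is not one of those named in the submitters' processing notes. Each window runs from 250 bases before to 50 bases after the start, 5′ to 3′ on the strand of the gene. Capitals mark motif letters searched on both strands, and no matches overlap in the windows shown. For ETS factors the letters were CCGGAA. For RUNX factors they were TGTGGT or, as the other form, TGCGGT. For MEIS factors they were TGACAG, and for the erythroid and megakaryocyte GATA factors they were AGATAA. Mecom has an upstream start at chr3:30509710-30510009 and an internal one at chr3:30013155-30013454, both on the minus strand, which give the long Mds1-Evi1 and the short Evi1 form. Lyl1 lies at chr8:84701207-84701506 on the plus strand and Meis1 at chr11:19018920-19019219 on the minus strand.
Mecom upstream start: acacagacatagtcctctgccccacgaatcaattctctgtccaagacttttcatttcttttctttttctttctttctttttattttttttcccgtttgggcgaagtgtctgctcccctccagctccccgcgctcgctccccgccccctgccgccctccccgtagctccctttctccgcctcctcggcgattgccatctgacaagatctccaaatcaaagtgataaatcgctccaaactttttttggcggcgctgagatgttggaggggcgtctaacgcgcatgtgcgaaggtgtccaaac
Mecom internal start: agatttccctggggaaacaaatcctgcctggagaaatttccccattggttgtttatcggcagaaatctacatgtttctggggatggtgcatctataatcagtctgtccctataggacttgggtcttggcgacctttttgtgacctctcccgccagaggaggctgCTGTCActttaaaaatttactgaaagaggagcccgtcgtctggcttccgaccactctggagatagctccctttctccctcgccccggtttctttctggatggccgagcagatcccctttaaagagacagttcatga
Meis1: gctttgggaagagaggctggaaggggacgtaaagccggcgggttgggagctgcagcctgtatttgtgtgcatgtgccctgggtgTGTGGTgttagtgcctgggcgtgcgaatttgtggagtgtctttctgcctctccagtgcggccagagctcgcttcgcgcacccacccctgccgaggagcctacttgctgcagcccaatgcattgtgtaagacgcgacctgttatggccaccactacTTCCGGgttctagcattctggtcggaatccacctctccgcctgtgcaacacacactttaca
Lyl1: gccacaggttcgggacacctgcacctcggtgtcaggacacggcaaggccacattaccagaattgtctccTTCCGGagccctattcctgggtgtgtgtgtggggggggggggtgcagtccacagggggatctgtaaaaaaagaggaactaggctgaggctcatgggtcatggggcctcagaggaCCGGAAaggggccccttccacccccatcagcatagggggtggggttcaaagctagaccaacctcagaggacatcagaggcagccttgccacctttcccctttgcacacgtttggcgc
The ETS letters occurred 2 times in the Lyl1 window and 1 time in that of Meis1, the RUNX letters 1 time in Meis1 and the MEIS letters 1 time at the internal Mecom start. Over the 11 windows of the factors, 3 held the ETS letters (27.3%), against 14.9% of 32851 promoter windows of all genes. The RUNX letters were in 2 windows (18.2% against 22.4%), the MEIS letters in 1 (9.09% against 19.2%) and the GATA letters in 0 (against 11.2%). A match of letters is a description and not a binding site.

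Mecom encodes a zinc finger protein needed to maintain blood stem cells. It was listed at 0.597 and 0.537 TPM (young) against 2.59 and 2.32 TPM (old). Both old libraries lay above both young ones, and the ratio of the group means was 4.34. On the log2(TPM + 1) scale, which understates changes of low genes, the rise was 1.14 (SE 0.18), at an adjusted limma p of 0.0227. With a pseudocount of 0.1 it was 1.94. The gene passed the minimum of 1 TPM, set on the mean of all 4 libraries at 1.51 TPM, only through its old libraries, so its call cannot be read against genes that passed in both groups. It lost its call without young replicate 1 (adjusted p = 0.0883), young replicate 2 (0.0828) or old replicate 1 (0.0619). The authors' deposited table gives Mecom a log2 fold change of 2.03, with an SE of 0.31, an adjusted p of 6.53e-11 and a mean normalized count of 261.

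Among relatives and corepressors of Mecom, 6 of 7 genes were tested. Of these 3 were lower and, Mecom itself, 1 higher, against 14.7% and 5.20% of all tested genes. Since Mecom passed the minimum level only through its old libraries, nothing is read from the count higher. The median log2 change was -0.32 against -0.10 for all genes. The histone deacetylase gene Hdac1 fell, with 148 and 155 TPM (young) against 114 and 109 TPM (old) (limma adjusted p = 0.0193). The corepressor gene Ctbp1 fell from 161 to 122 TPM and Suv39h1, a histone methyltransferase gene, from 60.3 to 47.5 TPM. With immunoglobulin genes removed 0 of the list were called lower by limma, with adjusted p of 0.0553 for Hdac1, 0.0763 for Ctbp1 and 0.218 for Suv39h1. The adjusted p of all 3 was above the threshold without either young library, between 0.117 and 0.212. Prdm16, the closest relative of Mecom, did not reach the minimum level and was not tested.

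Meis1, a homeobox gene of stem cells and megakaryocytes, was at 5.55 and 6.10 TPM (young) against 7.56 and 8.12 TPM (old). The old values were the higher ones without overlap, and its log2 change of 0.37 (SE 0.11) had an adjusted limma p of 0.0743. It did not pass as deposited and passed with immunoglobulin genes removed, at 0.54 with an adjusted p of 0.0443. For Meis1 the authors' deposited table gives a log2 fold change of 0.34, with an SE of 0.12 and an adjusted p of 0.0120. Mecom and Meis1 were the 2 factors among the authors' 1255 changed genes, of which 527 were higher and 728 lower in old.

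Meis1 and the genes of its possible partners lay mostly above 0. Of 15 TALE homeobox and HOX genes 11 were tested, Meis1 included, of which 2 rose and, by limma, 0 fell. At an unadjusted p under 0.05, 5 were higher, Meis1 among them, and 0 lower, against 11.3% and 28.0% of all tested genes, with a median log2 change of 0.34 and 10 positive values. Hoxa9, which pairs with Meis1 on DNA, rose from 1.70 and 1.70 to 3.22 and 3.28 TPM (limma adjusted p = 0.0400). Hoxa9 did not pass when any 1 library was left out, with adjusted p of 0.0877 to 0.183, and 0 of the list were then higher by limma. Under median-ratio scaling 3 of the list were higher and with immunoglobulin genes removed 4. With the replicate number as a block 0 were higher by limma, with an adjusted p of 0.103 for Hoxa9.

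Markers of stem and progenitor cells, where Mecom, Meis1 and Hoxa9 are known to act, differed between the groups too. Of 10 markers 3 rose and 1 fell, against 5.20% higher and 14.7% lower of all tested genes. Changes were positive for 6 and negative for 4. Besides Cd48, the negative log2 changes were those of Cd34 (-0.092), Slamf1 (-0.17) and Flt3 (-0.21), which were not called. The sum of the list was 1953 and 2094 TPM (young) against 2261 and 2573 TPM (old), most of it from Mpo. Ly6a, the Sca-1 antigen, rose from 26.9 and 21.5 to 119 and 131 TPM. Procr, a stem cell surface receptor, rose from 0.488 and 0.447 to 2.15 and 1.54 TPM and passed the minimum level only through its old libraries. Because of that filter nothing is read from the count of these markers called higher. Kit, the stem cell factor receptor, rose from 30.6 and 32.4 to 41.2 and 38.0 TPM. Cd48, a surface protein found on committed progenitors and most leukocytes, fell from 212 to 136 TPM (limma adjusted p = 0.0171). The count higher was 6 with immunoglobulin genes removed, and 1 with the replicate block, without a variance trend, without a filter, or with any 1 library left out. Their part in the Mecom result was not tested.

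Lyl1, a basic helix-loop-helix factor of progenitors, was at 157 TPM in each young library against 117 and 125 TPM in old ones. The old values were lower without overlap, and young samples held 1.30 times the old level. Its log2 change of -0.37 (SE 0.06) had an adjusted limma p of 0.0236. Lyl1 was not among the authors' listed changed genes, and its call depended on scaling and libraries. Median-ratio scaling gave -0.31 (adjusted p = 0.0835), and removing immunoglobulin genes gave -0.18 (adjusted p = 0.0994). With the replicate block the adjusted p was 0.0544. Without that block it was 0.167 when young replicate 1 was left out and 0.148 when young replicate 2 was.

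Genes for several partners of Lyl1 fell. Of 12 genes of bHLH and LIM complexes, Lyl1 included, 6 fell and by limma 0 rose (8 lower and 0 higher at an unadjusted p under 0.05, against 28.0% and 11.3% of all tested genes), with a median log2 change of -0.34. Tal1, the paralogue of Lyl1, fell from 54.2 and 52.8 to 34.4 and 35.5 TPM (limma adjusted p = 0.0124). Id1, an inhibitor of E proteins, fell from 31.2 and 33.1 to 19.4 and 17.9 TPM (limma adjusted p = 0.0130). The LIM complex gene Ssbp3 fell from 42.0 and 41.9 to 28.8 and 27.7 TPM, and the E protein gene Tcf3 from 111 and 108 to 82.0 and 76.6 TPM. Lmo2, the bridging protein, was at 216 and 215 against 199 and 204 TPM with a limma adjusted p of 0.241. Under median-ratio scaling 4 were lower, and with immunoglobulin genes removed 3 were. Without young replicate 1 the adjusted p was 0.0906 for Tal1, 0.0569 for Id1, 0.105 for Ssbp3 and 0.135 for Tcf3, and without young replicate 2 it was 0.0649, 0.0623, 0.0895 and 0.102. Tal1 also acts in red cell precursors, whose 10 markers summed to 9825 and 9767 TPM (young) against 2897 and 3455 TPM (old). Tcf3 also acts in B cell precursors, and the 12 B cell markers summed to 519 and 466 TPM (young) against 288 and 273 TPM (old).

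Runx1 was at 40.1 and 43.1 TPM (young) against 35.4 and 34.4 TPM (old). Both old values were lower, with a log2 change of -0.25 (SE 0.07) and an adjusted limma p of 0.0674. With immunoglobulin genes removed the change was -0.060. Of 6 genes, 3 for RUNX proteins, 1 for core binding factor beta and 2 for the corepressors Cbfa2t2 and Cbfa2t3, 1 fell and by limma 0 rose. At an unadjusted p under 0.05, 3 were lower and 0 higher, against 28.0% and 11.3% of all tested genes, with a median log2 change of -0.20. That gene was Cbfb, the shared partner of RUNX proteins, at 91.7 and 91.4 TPM (young) against 72.6 and 69.6 TPM (old) (limma adjusted p = 0.0240). The adjusted p of Cbfb was 0.0509 under median-ratio scaling, 0.115 with immunoglobulin genes removed, 0.0612 with the replicate block, and 0.175 (without young replicate 1) and 0.156 (without young replicate 2). Runx2 had means of 26.6 and 29.6 TPM and Runx3 of 28.3 and 27.0 TPM in young and old samples, with adjusted p of 0.401 and 0.497.

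Fli1 and Ets1 are adjacent protein-coding genes on mouse chromosome 9. Fli1, an activator of late megakaryocyte genes, was at 61.6 and 62.8 TPM (young) against 57.9 and 55.3 TPM (old). The values did not overlap, but the log2 difference was -0.13 (SE 0.06; limma adjusted p = 0.173), and the value turned to 0.053 with immunoglobulin genes removed. Ets1, a factor that is also high in lymphocytes, was at 67.4 and 66.4 TPM (young) against 54.8 and 44.6 TPM (old). The old values were lower and wider apart, and the log2 change of -0.43 (SE 0.11) had an adjusted limma p of 0.0517. It was called in 3 of 14 alternatives, among them a minimum of 5 TPM (adjusted p = 0.0411) and leaving out old replicate 1 (0.0463). With immunoglobulin genes removed the difference was -0.24 (adjusted p = 0.180), and leaving out a young library gave an adjusted p of 0.207 or 0.175. The level of Ets1 divided by that of Fli1, a ratio no scaling can alter, was 1.09 and 1.06 in the young and 0.946 and 0.806 in the old libraries. The 11 T and NK cell markers summed to 157 and 169 TPM (young) against 151 and 174 TPM (old), and 1 of them, Gzma, fell. The 12 B cell markers fell as given for Tcf3, and their part in the Ets1 values was not tested.

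Etv6, a repressor of the ETS family, was at 59.5 and 59.7 TPM (young) against 62.8 and 63.9 TPM (old). The old values were slightly higher, with a log2 change of 0.087 (SE 0.06) and an adjusted limma p of 0.316. With immunoglobulin genes removed the change was 0.27 and passed, with an adjusted p of 0.0432. The ratio of Lyl1 to Etv6 within a library was 2.64 and 2.63 in young and 1.87 and 1.95 in old samples.

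Of 26 ETS family genes 18 were tested, of which 1 rose and 2 fell, against 5.20% higher and 14.7% lower of all tested genes. The median log2 change of the family was -0.060. Ets2, an ETS factor that acts downstream of Ras signalling, rose from 23.9 and 26.3 to 81.2 and 60.5 TPM (log2 change 1.45, limma adjusted p = 0.0124). Spib, a factor of B cells, fell from 67.3 ± 0.985 to 37.9 ± 3.42 TPM (SD, n = 2 each; limma adjusted p = 0.0119). Spic, known in iron-recycling macrophages, fell from 10.4 and 12.4 to 5.81 and 6.60 TPM (limma adjusted p = 0.0247). The 10 monocyte and macrophage markers summed to 16162 and 14532 TPM (young) against 10578 and 11365 TPM (old), and 7 of them fell. The count was 2 under median-ratio scaling, with immunoglobulin genes removed, with the replicate block or without old replicate 1, and 1 without a variance trend or without either young library. Without 1 library the adjusted p of Spic lay between 0.0532 and 0.118, and that of Spib was 0.0530 without young replicate 1. Spi1, the most abundant ETS factor named here, had means of 378 and 347 TPM in young and old samples with a limma adjusted p of 0.184, and was named after its values were seen. Erg, a close relative of Fli1 and likewise named later, had means of 19.1 and 20.3 TPM (adjusted p = 0.607).

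Mef2c was at 34.4 and 35.3 TPM (young) against 33.5 and 33.7 TPM (old). The groups lay close together, with a log2 change of -0.053 (SE 0.06) and an adjusted limma p of 0.577, and the sign turned after median-ratio scaling (0.0060) or removal of immunoglobulin genes (0.13). Its relative Mef2b, known in B cells, rose from 0.584 and 0.335 to 5.71 and 4.95 TPM (log2 change 2.12, limma adjusted p = 0.00876), and like Mecom it passed the minimum only through its old libraries. All 8 plasma cell markers rose too, and their part in the Mef2b values was not tested. Of the 8 genes of the MEF2 family and class IIa histone deacetylases Mef2b was the 1 that rose and by limma 0 fell. At an unadjusted p under 0.05, 1 was higher, Mef2b itself, and 1 lower, against 11.3% and 28.0% of all tested genes. Because of the filter nothing is read from the count higher, which was 0 by limma with a minimum of 5 TPM. The median log2 change of the list was 0.0072.

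Hhex, a homeobox repressor, was at 35.8 and 36.2 TPM (young) against 31.4 and 29.0 TPM (old). Both old values were lower, with a log2 change of -0.25 (SE 0.07) and an adjusted limma p of 0.0710, and -0.062 with immunoglobulin genes removed. With 5 genes for Groucho corepressors, 1 of 6 fell and by limma 0 rose (3 lower and 0 higher at an unadjusted p under 0.05, a cut passed by 28.0% and 11.3% of all tested genes), with a median log2 change of -0.15. Tle5, the short Groucho protein, fell from 330 and 332 to 257 and 273 TPM (limma adjusted p = 0.0279), a call with an adjusted p of 0.128 under median-ratio scaling, 0.190 with immunoglobulin genes removed, 0.0682 with the replicate block, 0.0502 without old replicate 1, and 0.206 (without young replicate 1) and 0.197 (without young replicate 2).

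A scaling multiplies a whole library by 1 factor, so distances from the median of all tested genes are nearly fixed by construction and are given only to place the factors among the other genes. Mecom lay 1.24 above that median on the log2 scale as deposited and 1.21 above it with immunoglobulin genes removed, and Meis1 lay 0.47 above it in both. Etv6 lay 0.19 and 0.20 above it, while Ets1 was at -0.33 and -0.31 and Runx1 at -0.15 and -0.13. Ratios between factors of 1 library do not depend on scaling. The ratio of Mecom to Meis1 in TPM was 0.108 and 0.0879 (young) against 0.343 and 0.286 (old), and that of Runx1 to Fli1 was 0.651 and 0.686 against 0.611 and 0.622. Neither ratio overlapped between the groups, but no share of other gene pairs was counted to compare this with. For the levels of single genes, values did not overlap for 67.9% of those tested.

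**Figure D3:**
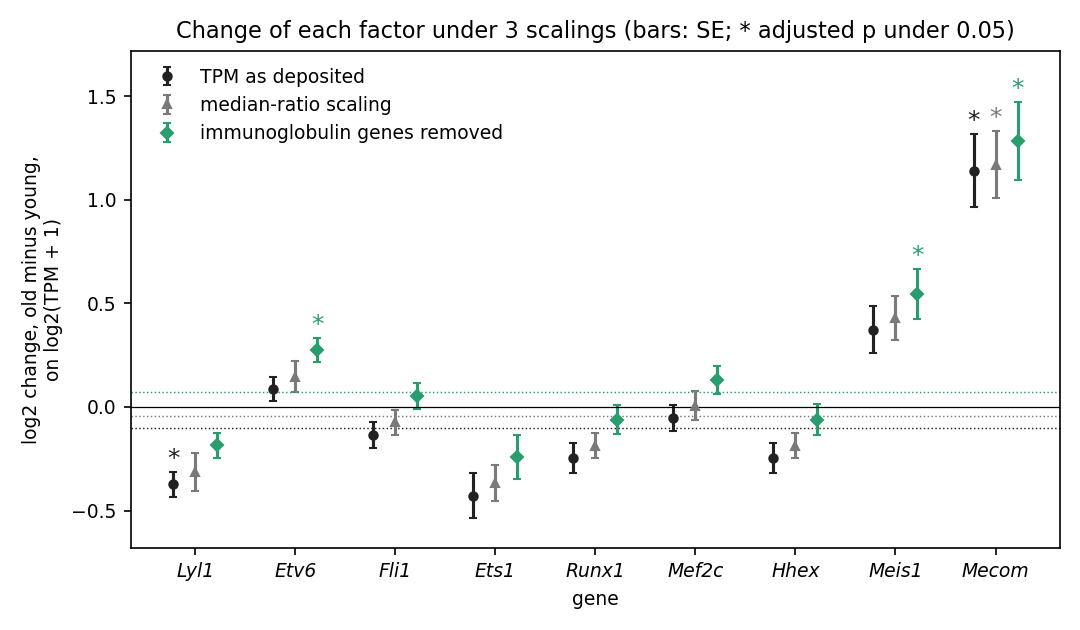
Log2 change of each factor, old minus young, with its SE, in 3 scalings of TPM (as deposited, median-ratio, immunoglobulin genes taken out). Stars mark an adjusted p under 0.05 and dotted lines the median change of all tested genes in each scaling. Mecom is starred in all 3, Lyl1 as deposited, and Etv6 and Meis1 with immunoglobulin genes removed.

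Genes that earlier work placed under RUNX1, FLI1 or MEIS1 control in megakaryocytes, some of them in human or rat cells, all had lower means in old samples, and 1 of 13 passed. The median log2 change was -0.68, with 0 higher and 9 lower by limma at an unadjusted p under 0.05 (11.3% and 28.0% of all tested genes), and the median of the 11 tested megakaryocyte markers, which share 6 genes with the list, was -0.76. F13a1, the clotting factor XIII subunit, fell from 613 and 636 to 381 and 399 TPM (limma adjusted p = 0.00921), a call lost when young replicate 1 (adjusted p = 0.0564) or young replicate 2 (0.0566) was left out. Monocyte and macrophage markers had lower sums in old samples, as given for Spic. Their part in the F13a1 values was not tested. Pf4 was at 746 and 832 TPM (young) against 433 and 598 TPM (old), with a limma adjusted p of 0.0545. The old libraries lay far apart for Tubb1, the platelet tubulin, at 17.0 and 61.2 TPM against 77.0 and 92.9 TPM in the young ones. The count lower was 7 with the replicate block, 4 with a minimum of 5 TPM, 8 without old replicate 2  and by limma 0 without either young library. Myh10, a myosin that RUNX1 represses, was at 13.3 and 14.6 against 10.8 and 7.69 TPM (limma adjusted p = 0.0745). Ankrd26, repressed by RUNX1 in human cells, was at 3.75 and 4.30 against 4.88 and 3.22 TPM (limma adjusted p = 0.977).

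**Figure D4:**
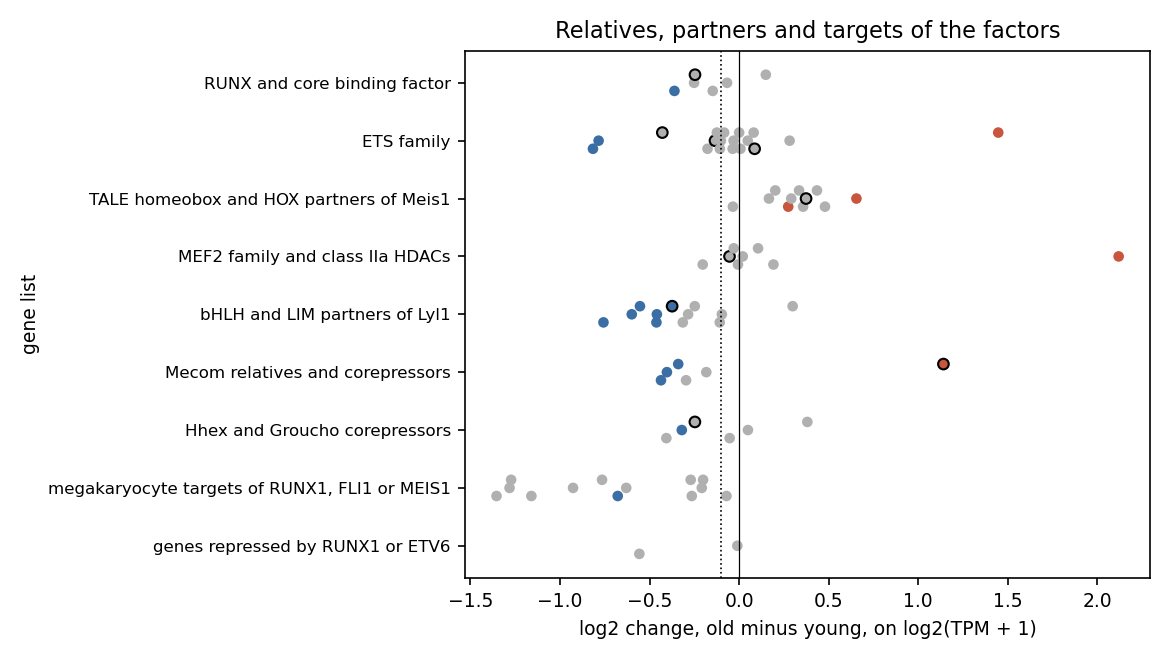
Log2 change, old minus young, of each tested gene in the 9 lists of relatives, partners and targets, with genes called higher in old in red, called lower in blue and not called in grey, and the 9 factors outlined. The dotted line is the median of all tested genes, -0.10. Partners of Lyl1 and megakaryocyte targets lie to the left, partners of Meis1 to the right, and Mef2b and Ets2 farthest to the right.

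The genes nearest in pattern to Lyl1 were found by the root mean square distance between centred log2(TPM + 1) values over the 4 libraries. Candidates were 9283 tested genes of 10 TPM or more on average. The nearest to Lyl1 were Ndufs4, Slc25a10 and Cdk4, at distances of 0.0059, 0.0066 and 0.0067. Over 4 libraries and so many candidates close matches are easy to find, and no typical distance was computed. No shared control is read from these matches. Cdk4 was at 192 TPM in each young library against 143 and 151 TPM (old). No nearest genes are given for Mecom, since the pseudocount shrinks the changes of a gene at its level and not those of the candidates.

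In the authors' deposited enrichment table of genes higher in old, Mecom was counted in 6 terms and Meis1 in 1. Mecom was among 38 listed genes of the term inflammatory response, with a log10 q of -5.94, and among 32 of regulation of MAPK cascade, with a log10 q of -1.50. Post-embryonic development had a log10 q of -1.40, and the other 3 terms had values between -0.79 and -0.68, short of a q of 0.05. Meis1 was among 23 listed genes of regulation of hemopoiesis, with a log10 q of -1.40. The table counts only genes the authors listed as higher, so the other 7 factors could not enter it.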

How the data were processed

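Poly(A)-selected RNA of 2 young and 2 old samples was made into strand-specific libraries (labels' protocols). DESeq2, STAR, TopHat and Trim Galore, with the builds mm9 and GRCm39, are named, without roles, in the submitters' processing notes. The deposited values are TPM, as the authors computed them per the file headers, with a total of 1000000 in every library. Since TPM hides depth, the depth is unknown and counting intervals are left out. For changed genes the authors deposited log2 fold changes with standard errors, p-values and a mean normalized count signal, and for terms log10 p and q values, per the file headers. The 4 library columns beside the fold changes equal the TPM table.

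The 16073 genes averaging 1 TPM or more were kept, transformed to log2(TPM + 1) and tested with limma 3.58.1 in R 4.3.3, with variances following a trend. An exact permutation test of 2 against 2 cannot go below p = 0.333. The script was tested on simulated data. The factors and gene lists were chosen with earlier results of these data known. Named genes were the 9 factors, up to 4 called genes with the smallest p per list (or the 2 most abundant where none was called), list markers, and the 3 nearest patterns of Lyl1 (those of Mecom are left out because of the pseudocount). Other genes were named after their values were seen. Some genes that the rule names are not reported here. Alternatives were other pseudocounts, filters, scalings, no variance trend, a replicate block and each library left out. A crossed pairing was added after seeing the data. Figures used matplotlib 3.10.9.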

Additional observations from a re-analysis of the deposited data

How the results depend on the processing

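In all, 13 alternatives chosen at the outset and 1 added later were run. Of 125 values of single factors, 100 kept their direction and side of the threshold, 12 lost a call, 8 gained one and 5 changed sign. Factors higher and lower in old numbered 0 and 0 without a filter on low values (2 and 4 at an unadjusted limma p under 0.05), 0 and 2 with a minimum mean level of 5 TPM (Mecom falls below it), and 3 and 0 with immunoglobulin genes removed or with immunoglobulin, haemoglobin and mitochondrial genes removed. Those lower numbered 0 under median-ratio scaling, without a variance trend and with the replicate block. Leaving out 1 library gave 0 to 1 higher and 0 to 2 lower, with 0 of each without either young library (1 higher and 2 lower at an unadjusted limma p under 0.05). The cause of these changes was not tested.

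Of all genes, 71 were higher and 59 lower without a filter, where 33589 genes were tested, 309 and 263 without a variance trend, 496 and 756 with the replicate block, and 233 to 679 and 100 to 1646 without 1 library. Those lower were 900 under median-ratio scaling and 515 without immunoglobulin, haemoglobin and mitochondrial genes. With immunoglobulin genes removed they were 1295 and 508. Without a filter no gene of the 9 related lists passed. Same-numbered libraries had deviations correlated at -0.146, so the numbers were not taken to pair them. A crossed pairing gave 1498 genes higher and 3151 lower, and 1 factor higher and 3 lower. With 2 libraries per group its correlation, 0.146, is the same value with the sign turned, by construction. It was chosen after the data were seen, so nothing is read from its larger counts.

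Signs turned, all for uncalled values, in these cases. The median of all genes was 0.00414 without a filter, 0.070 without immunoglobulin genes and 0.063 without immunoglobulin, haemoglobin and mitochondrial genes. In the last 2 settings Fli1 was at 0.053 and 0.044, Mef2c at 0.13 and 0.12 and Ankrd26 at 0.14 and 0.14, and under median-ratio scaling Mef2c was at 0.0060 and Ankrd26 at 0.038. Without 1 library Ankrd26 ranged from -0.25 to 0.23. The read depth of each library is unknown, which bears most on a low gene such as Mecom.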

Other observations

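The authors' deposited table gives a mean normalized count, which is not a read count of any library, for the 2 lowest factors. Meis1 had a mean normalized count of 4109 at a mean of 6.83 TPM, which is 601 counts per TPM, and Mecom had 261 at 1.51 TPM, which is 172 counts per TPM. The median over the 1255 listed genes was 40.5 counts per TPM, and 99.5% of them had a lower value than Meis1 and 95.1% a lower one than Mecom. In the authors' deposited table the p-values were 0.000525 for Meis1 and 2.39e-13 for Mecom, and both are smaller than the ratio of its fold change to its standard error gives.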
